A study of Mus musculus with 8 samples.

Results

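The 10 genes described here are the enzymes and receptors of prostanoid signalling given by symbol: the cyclooxygenases Ptgs1 and Ptgs2, the prostaglandin E synthases Ptges, Ptges2 and Ptges3, the phospholipase Pla2g4a, the thromboxane synthase Tbxas1, the prostaglandin D synthase Hpgds, and the prostaglandin E2 receptors Ptger2 and Ptger4. They were taken by symbol, whatever their values, from the 42454 gene rows of the count table, and all 10 were found, each with at least 1 count in the series. RNA with poly(A) tails was sequenced from RAW264.7 cells, a mouse macrophage-like tumour line, in 8 libraries. The labels place 2 libraries in each of 4 groups: the solvent DMSO (mock), Tubuloside B, a phenylethanoid glycoside (TubB), a stimulus of lipopolysaccharide (LPS, 10 ng/ml) and interferon-gamma (IFN-γ, 20 ng/ml) lasting 24 h (LPS_IFNg), and both the stimulus and Tubuloside B (LPS_IFNg_TubB). Neither the dose of Tubuloside B nor the duration for the mock and TubB groups is given in the sources used here, and all groups share the one cell line. The labels do not say whether the 2 libraries of a group are separate cultures, and the p-values therefore describe only the spread between these libraries, which may be technical.

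Prostanoids are lipid signals made on demand. A phospholipase A2 such as cytosolic Pla2g4a frees arachidonic acid from membranes, a cyclooxygenase turns it into prostaglandin H2, and a terminal synthase turns that into prostaglandin E2, prostaglandin D2 or thromboxane A2. Ptgs1 is the cyclooxygenase that many cells carry at rest, whereas Ptgs2 and Ptges are the inducible pair that activated macrophages use to make prostaglandin E2, which then acts on neighbouring cells and on the macrophage itself through the receptors EP2 (Ptger2) and EP4 (Ptger4).

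The genes that report LPS and IFN-γ did not follow the deposited labels, and this bears on every direction below. Nos2, the inducible nitric oxide synthase, stood at 176 and 155 CPM (counts scaled to a common library size) in the 2 libraries labelled mock and at 199 and 166 CPM in those labelled LPS_IFNg. It stood at 6964 and 5762 CPM in the libraries labelled TubB and at 7429 and 6156 CPM in those labelled LPS_IFNg_TubB. Gbp2, a guanylate-binding protein induced by IFN-γ, had 5, 2, 5 and 2 counts in the libraries labelled mock and LPS_IFNg, against 6375 to 10605 counts in the other 4. All 10 of 10 stimulus markers were called higher in the libraries labelled TubB than in those labelled mock, beside 26.3% of all genes tested. Between those labelled LPS_IFNg and mock 0 of 10 were called, beside 0% of all genes tested. Some markers, Gbp2 and the cytokine genes Il6 and Il1b included, entered the test only through the libraries where they are high. Their calls are therefore a description only. Libraries keep their deposited labels here, and each difference is one between libraries so labelled. Macrophage markers summed to 8123 to 10244 CPM in every library, highest in those labelled TubB and LPS_IFNg_TubB, while mast cell markers (a known source of Hpgds) reached at most 1.26 CPM in sum and platelet markers (a known source of Tbxas1 and Ptgs1) at most 2.42 CPM. Among markers of other cells, the neutrophil list summed to 4.61 to 6.42 CPM in the libraries labelled mock and LPS_IFNg and to 32.3 to 51.8 CPM in the other 4, with 1 of its 5 genes abundant enough to test. The dendritic cell list summed to 40.1 to 54.5 CPM across all libraries, with 2 of its 4 genes abundant enough to test. Whether either list has any part in the results below was not tested.

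Between the libraries labelled TubB and mock, the prostaglandin E2 branch moved in opposite directions at its inducible and resting enzymes. Ptgs2 rose 40.7-fold and Ptges 5.54-fold, while Ptgs1 fell 7.27-fold, Ptges2 1.51-fold and Ptges3 1.45-fold. Hpgds, which makes prostaglandin D2 instead, rose 1.33-fold. Pla2g4a and Tbxas1 did not pass the test, Ptger2 was too rare to test, and Ptger4 is described apart because it entered the test only through the groups where it is high. A gene is called here when edgeR's quasi-likelihood test, adjusted by Benjamini-Hochberg over all 11081 genes tested, gives an adjusted p under 0.05. Of the 9 prostanoid genes tested, 4 (Ptger4 included) were called higher and 3 lower, where 26.3% of all genes tested were called higher and 24.9% lower. The median size of the log2 fold change, taken without its sign, was 0.59 for these 9, again with Ptger4, and 0.42 for all genes tested. With so large a share of genes called, a call by itself sets none of these genes apart.

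**Figure D1:**
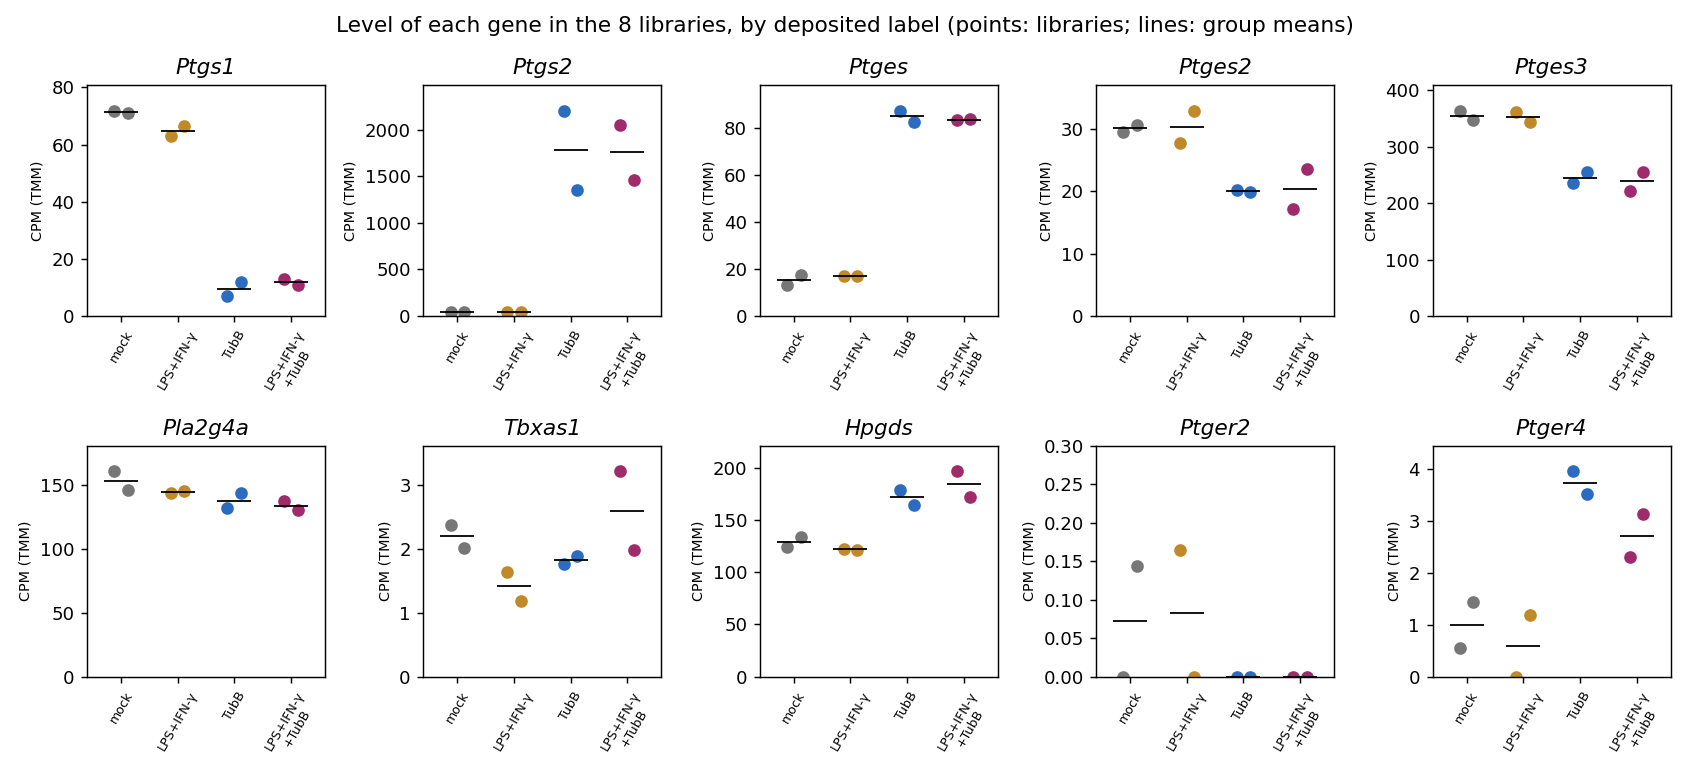
Level of each of the 10 genes in CPM (vertical axes, scaled per gene, starting at 0) in the 8 libraries, grouped by deposited label; points are libraries and lines are group means of 2. Ptgs2 and Ptges stand high, and Ptgs1 low, in all 4 libraries labelled TubB or LPS_IFNg_TubB.

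The same contrast within the libraries that are labelled with the stimulus, LPS_IFNg_TubB against LPS_IFNg, uses none of the libraries above. There, too, 4 of the 9 genes (Ptger4 included) were called higher and 3 lower, and they were the same 7 genes in the same directions. For Ptger4 the filter on low counts favoured that direction, so its part in this is a description only. Of all genes tested, 26.2% were called higher and 25% lower. The median unsigned log2 fold change was 0.83 for the 9 genes, again with Ptger4, and 0.43 for all genes. That 0.83 is the value of Tbxas1, a rare gene that was not called and whose 95% interval ran from -0.37 to 2.02. Both contrasts come from the same fit, filter and estimate of spread, so they are not independent repeats. Mean chi-square per gene, smaller for more alike libraries, was 1.91 to 2.32 between same-numbered libraries of mock and LPS_IFNg, and of TubB and LPS_IFNg_TubB. Between libraries with the same label it was 2.55 to 4.74. These are bulk libraries, in which more cells expressing a gene and more of its RNA per cell cannot be told apart.

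The cyclooxygenases come first because they carry the widest change. Ptgs1 (cyclooxygenase 1; chromosome 2, 36216742 to 36258593, plus strand, GRCm38.p6) had 71.9 and 71.1 CPM in the libraries labelled mock and 63.0 and 66.6 CPM in those labelled LPS_IFNg. It had 6.81 and 11.8 CPM in the libraries labelled TubB and 13.1 and 10.7 CPM in those labelled LPS_IFNg_TubB, so the highest of these 4 values is well below the lowest of the first 4. The log2 fold change was -2.86 ± 0.17 (SE) for TubB against mock (adjusted p = 1.43e-14) and -2.46 ± 0.17 for LPS_IFNg_TubB against LPS_IFNg (adjusted p = 7.42e-13). Ptgs2 (cyclooxygenase 2; chromosome 1, 150100031 to 150108234, plus strand) had 44.0 and 43.4 CPM in the libraries labelled mock and 43.1 and 44.9 CPM in those labelled LPS_IFNg. It reached 2205 and 1357 CPM in those labelled TubB and 2048 and 1464 CPM in those labelled LPS_IFNg_TubB. Groups did not overlap, yet the high groups were also wide, the lower library standing at 1357 CPM beside 2205 in the one and at 1464 beside 2048 in the other. Its log2 fold change was 5.35 ± 0.37 for TubB against mock (adjusted p = 3.28e-04) and 5.32 ± 0.37 for LPS_IFNg_TubB against LPS_IFNg (adjusted p = 3.48e-04).

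Per kilobase of exon, which allows levels of different genes to be set side by side, Ptgs2 exceeded Ptgs1 in all 8 libraries. The ratio of Ptgs2 to Ptgs1 was 1.70 and 1.70 in the libraries labelled mock and 1.90 and 1.87 in those labelled LPS_IFNg. It was 901 and 320 in the libraries labelled TubB and 436 and 379 in those labelled LPS_IFNg_TubB. As means these are 1.70 ± 0.0022 (SD, n = 2), 1.89 ± 0.021, 611 ± 411 and 407 ± 39.7, and they are given without a test, since 2 libraries against 2 allow no exact permutation p under 0.05. The mean for TubB rests on 31 counts of Ptgs1 in replicate 1, without which it is 320, and it is 901 without replicate 2. The exon length of Ptgs1 used here, 12411 bases, is the union of 100 annotated exon rows, against 4460 bases in 10 rows for Ptgs2. A union longer than the transcript in use understates the level of Ptgs1, and undivided by length the ratio was 0.611 and 0.679 in the groups labelled mock and LPS_IFNg, so the order of the pair there depends on that length. The sum of both cyclooxygenases per kilobase rose from 15.6 and 15.5 CPM in the libraries labelled mock to 495 and 305 CPM in those labelled TubB.

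**Figure D2:**
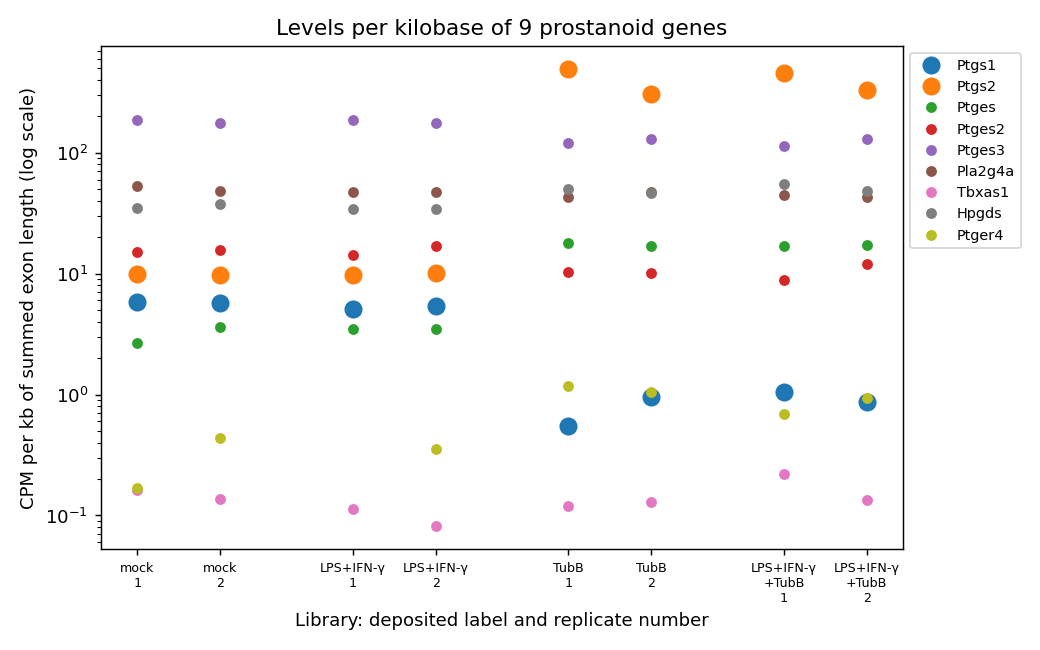
Levels of 9 genes as CPM per kilobase of summed exon length (log axis) in each library, by deposited label and replicate number; the large symbols are Ptgs1 and Ptgs2, Ptger2 is left out, and Ptger4 in replicate 1 of LPS_IFNg is at 0 and so has no point. Ptgs2 lies below Ptges2 in the libraries labelled mock and LPS_IFNg and above all others in the other 4, while Ptgs1 lies near Ptger4 in those 4, by an exon length that can understate Ptgs1.

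The sequence before the start of each gene is shown for the inducible pair and for Ptgs1, since these are the members whose levels move apart most. Each line runs 5′ to 3′ on the gene's strand over 280 bases, 250 before and 30 from the RefSeq start, with matches to the motifs searched in capitals (RefSeq, GRCm38.p6).
Ptgs2 (chr1:150099781-150100060, plus strand): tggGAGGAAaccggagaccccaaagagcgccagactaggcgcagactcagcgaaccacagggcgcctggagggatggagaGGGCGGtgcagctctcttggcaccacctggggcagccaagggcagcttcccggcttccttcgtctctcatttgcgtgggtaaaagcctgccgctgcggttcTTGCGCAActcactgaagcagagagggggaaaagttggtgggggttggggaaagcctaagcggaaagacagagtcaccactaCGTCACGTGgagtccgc
Ptges (chr2:30903268-30903547, minus strand): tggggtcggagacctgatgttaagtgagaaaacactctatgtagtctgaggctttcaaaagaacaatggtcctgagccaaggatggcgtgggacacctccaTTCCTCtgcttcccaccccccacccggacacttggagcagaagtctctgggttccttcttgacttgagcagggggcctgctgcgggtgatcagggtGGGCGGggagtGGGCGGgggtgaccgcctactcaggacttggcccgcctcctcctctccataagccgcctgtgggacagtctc
Ptgs1 (chr2:36230176-36230455, plus strand): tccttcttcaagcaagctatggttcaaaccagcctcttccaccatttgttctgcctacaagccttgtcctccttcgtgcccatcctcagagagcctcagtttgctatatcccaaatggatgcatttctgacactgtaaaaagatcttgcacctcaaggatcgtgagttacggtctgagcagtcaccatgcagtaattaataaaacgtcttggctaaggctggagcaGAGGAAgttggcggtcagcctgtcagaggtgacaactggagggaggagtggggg
The motifs were searched on both strands: the C/EBP palindrome TTGCGCAA, the CRE half-site TGACG, the E-box CACGTG, the GC box GGGCGG, the PU.1 core GAGGAA, the TATA box TATAAA and the NF-κB consensus by name. The Ptgs2 window holds the C/EBP palindrome 69 bases before the start, which 0.18% of the 32851 RefSeq windows of this length hold. It also holds a CRE half-site on the minus strand at base 14, overlapping an E-box at base 17, a GC box 170 bases before the start and a PU.1 core 247 bases before it. CRE half-sites occur in 19.9% of all windows, E-boxes in 6.79%, GC boxes in 34.7% and PU.1 cores in 26.0%. In the Ptges window there were 2 GC boxes, 53 and 42 bases before the start, and a PU.1 core on the minus strand. The Ptgs1 window held 1 match, a PU.1 core 24 bases before the start. No window of the 10 genes matched the NF-κB consensus, which 4.22% of all windows do, and this says only that those letters are not in these windows. The windows of Ptges and Ptgs1 lie inside the annotated gene spans, which reach further upstream, and the counts do not show which start was used.

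Of the 3 prostaglandin E synthases, only Ptges was called higher in the libraries labelled TubB and LPS_IFNg_TubB. Ptges (microsomal prostaglandin E synthase 1, the inducible enzyme coupled to Ptgs2; chromosome 2, 30889471 to 30931020, minus strand) had 13.1 and 17.6 CPM in the libraries labelled mock, 17.0 and 17.0 CPM in those labelled LPS_IFNg, 87.6 and 82.8 CPM in those labelled TubB and 83.6 and 83.9 CPM in those labelled LPS_IFNg_TubB. The 4 high libraries span a narrow range far above the others. The log2 fold change was 2.47 ± 0.14 for TubB against mock (adjusted p = 3.95e-15) and 2.30 ± 0.14 for LPS_IFNg_TubB against LPS_IFNg (adjusted p = 3.59e-14). An antisense gene model shares 43 exon bases with Ptges, 0.876% of its exon length, and reads there cannot be assigned to a strand.

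The other prostaglandin E synthases fell by less. Ptges3 (the cytosolic enzyme, also known as p23, a cochaperone of Hsp90; chromosome 10, 128058982 to 128077254, plus strand) had 364 and 346 CPM in the libraries labelled mock, 362 and 343 in those labelled LPS_IFNg, 235 and 255 in those labelled TubB and 221 and 255 in those labelled LPS_IFNg_TubB. This was a log2 fold change of -0.53 ± 0.078 for TubB against mock (adjusted p = 1.24e-06) and -0.56 ± 0.078 for LPS_IFNg_TubB against LPS_IFNg (adjusted p = 6.31e-07). Ptges2 (microsomal prostaglandin E synthase 2; chromosome 2, 32395890 to 32402740, plus strand) had 29.6 and 30.7 CPM in the libraries labelled mock, 27.8 and 33.0 in those labelled LPS_IFNg, 20.2 and 19.9 in those labelled TubB and 17.2 and 23.6 in those labelled LPS_IFNg_TubB. Its groups did not overlap in either contrast, and the log2 fold changes were -0.59 ± 0.17 (adjusted p = 0.00433) and -0.55 ± 0.17 (adjusted p = 0.00903). The second call was lost without replicate 2 of LPS_IFNg (adjusted p = 0.117) and without replicate 1 of LPS_IFNg_TubB (adjusted p = 0.16). The fall of Ptges3 and the rise of Ptges changed their proportion: per kilobase, Ptges3 stood 69.7 and 49.4 times above Ptges in the libraries labelled mock, 53.6 and 50.7 times in those labelled LPS_IFNg, 6.73 and 7.75 times in those labelled TubB and 6.65 and 7.64 times in those labelled LPS_IFNg_TubB. In every library Ptges3 remained the most abundant of the 3 by that measure.

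Pla2g4a was not called in either contrast. This cytosolic phospholipase A2 (chromosome 1, 149829618 to 149961290, minus strand), which releases arachidonic acid from membranes, had 161 and 146 CPM in the libraries labelled mock, 144 and 145 in those labelled LPS_IFNg, 132 and 144 in those labelled TubB and 138 and 131 in those labelled LPS_IFNg_TubB. The libraries labelled TubB lie just below those labelled mock. The log2 fold change was -0.15 with a 95% interval of -0.32 to 0.020 for TubB against mock (adjusted p = 0.135) and -0.11 with an interval of -0.29 to 0.064 for LPS_IFNg_TubB against LPS_IFNg (adjusted p = 0.288). Pla2g4a and Ptgs2 are neighbours on chromosome 1, with 138740 bases between their spans, and lie on opposite strands. Scaling by library totals alone made Pla2g4a lower in both contrasts (log2 fold change -0.37 with adjusted p = 7.42e-04, and -0.32 with adjusted p = 0.0028), beside a median over all genes that moved by -0.21.

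Prostaglandin D2 and thromboxane have one member each here. Hpgds (the haematopoietic prostaglandin D synthase; chromosome 6, 65117293 to 65144981, minus strand) had 124 and 134 CPM in the libraries labelled mock, 122 and 122 in those labelled LPS_IFNg, 179 and 165 in those labelled TubB and 197 and 172 in those labelled LPS_IFNg_TubB. All 4 high values exceed all 4 low ones, by a modest margin. As a log2 fold change this was 0.41 ± 0.086 for TubB against mock (adjusted p = 1.87e-04) and 0.59 ± 0.087 for LPS_IFNg_TubB against LPS_IFNg (adjusted p = 1.59e-06). With library totals alone the first was 0.19 (adjusted p = 0.0506) and missed the threshold. Mast cell markers, 7 genes in all, had at most 1.26 CPM in sum in any library and 4 of the 7 had no count, while Hpgds had at least 122 CPM. Tbxas1 (thromboxane A synthase; chromosome 6, 38864159 to 39084590, plus strand) was rare, with 17 and 14 counts in the libraries labelled mock, 10 and 7 in those labelled LPS_IFNg, 8 and 15 in those labelled TubB and 14 and 12 in those labelled LPS_IFNg_TubB. Its log2 fold change for TubB against mock was -0.26 with an interval of -1.37 to 0.85 (adjusted p = 0.719), and for LPS_IFNg_TubB against LPS_IFNg 0.83 with an interval of -0.37 to 2.02 (adjusted p = 0.248). These intervals allow changes of more than 2-fold, so a difference was not detectable at this depth.

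The 2 prostaglandin E2 receptors that raise cyclic AMP were both scarce. Ptger4 (EP4; chromosome 15, 5233399 to 5244187, minus strand) had 4 and 10 counts in the libraries labelled mock and 0 and 7 in those labelled LPS_IFNg, against 18 and 28 in those labelled TubB and 10 and 19 in those labelled LPS_IFNg_TubB. As CPM these are 0.558 and 1.44, 0 and 1.19, 3.95 and 3.52, and 2.30 and 3.14, and the groups did not overlap within either contrast. edgeR gave a log2 fold change of 1.88 ± 0.64 for TubB against mock (adjusted p = 0.0147) and 2.20 ± 0.77 for LPS_IFNg_TubB against LPS_IFNg (adjusted p = 0.0183). The gene passed the filter on low counts through the libraries labelled TubB and LPS_IFNg_TubB alone, which favoured this direction, so these tests are given as a description only. With no count filter the log2 fold changes were 1.87 (adjusted p = 0.00851) and 2.19 (adjusted p = 0.0095). Both calls and their sizes rest on single libraries. For TubB against mock the value was 1.35 without replicate 1 of mock (adjusted p = 0.168), 2.69 without replicate 2 of mock (adjusted p = 0.0204) and 1.80 without replicate 1 of TubB (adjusted p = 0.0544). In the other contrast it was 1.20 without replicate 1 of LPS_IFNg (adjusted p = 0.229) and 1.93 without replicate 2 of LPS_IFNg_TubB (adjusted p = 0.119). Without replicate 2 of LPS_IFNg the remaining library of that group has 0 counts, and no fold is given. Ptger2 (EP2; chromosome 14, 44988111 to 45003820, plus strand) had 1 count in 1 library labelled mock, 1 in 1 library labelled LPS_IFNg and 0 in the other 6. A count of 0 allows up to 3 counts, or 0.377 to 0.689 CPM across the libraries, which covers counting error only. No direction can be read for Ptger2.

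**Figure D3:**
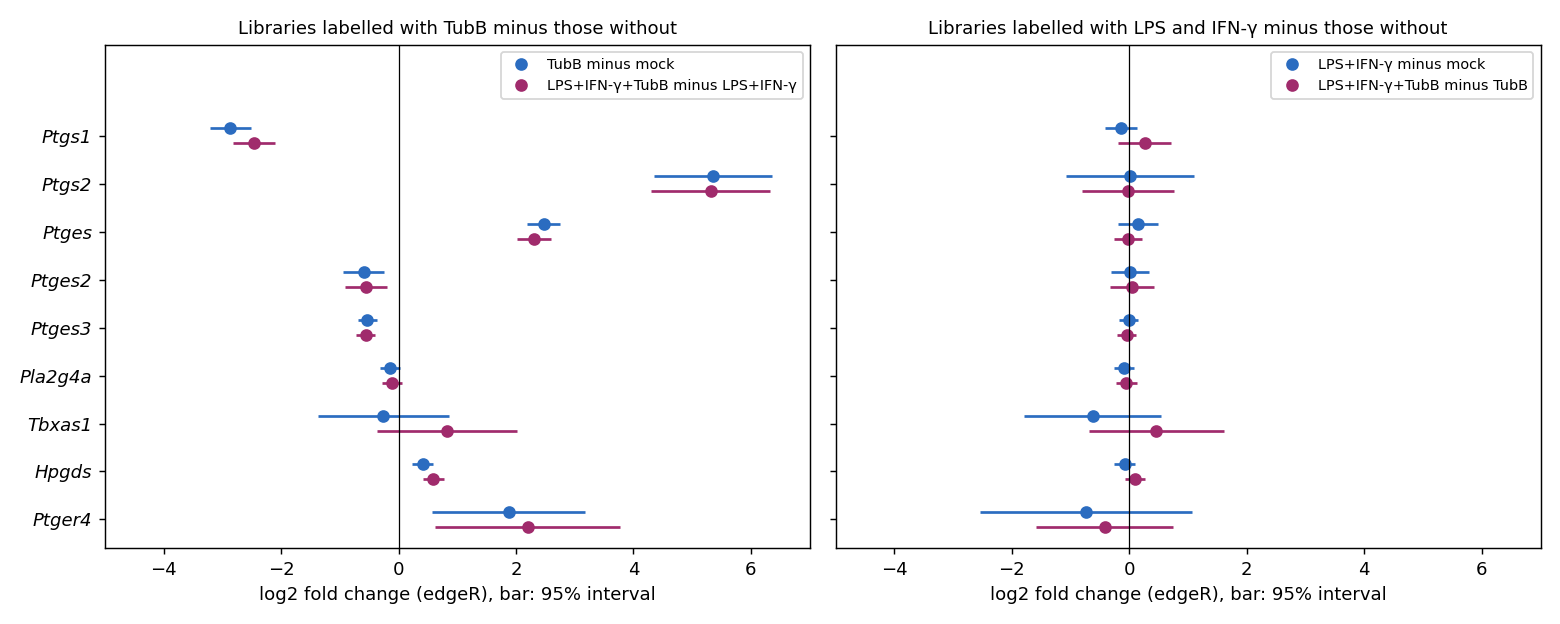
Log2 fold change of the 9 tested genes (horizontal axis, points) with 95% intervals (bars) between libraries labelled with and without TubB (left) and between libraries labelled with and without LPS and IFN-γ (right). On the left Ptgs2 lies at 5.35 and 5.32 and Ptgs1 at -2.86 and -2.46, and on the right the intervals of all 9 genes include 0.

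The comparisons named for the stimulus showed no called change in these genes or in any other. Between the libraries labelled LPS_IFNg and mock, 0 of the 9 prostanoid genes were called by edgeR and the share of all 11081 genes called was 0%, with 247 genes at an unadjusted p under 0.05 and 0 called by DESeq2. Between those labelled LPS_IFNg_TubB and TubB the counts were again 0 of 9 and 0% of all genes, with 269 genes at an unadjusted p under 0.05 and 0 by DESeq2. None of the 9 genes had an unadjusted p under 0.05 in either comparison. Ptgs2 differed by 0.0095 on the log2 scale between the libraries labelled LPS_IFNg and mock, with an interval of -1.08 to 1.10, and Ptgs1 by -0.14, with an interval of -0.41 to 0.13. Ptges differed by 0.15 (-0.19 to 0.48). Between the libraries labelled LPS_IFNg_TubB and TubB the differences were -0.019 for Ptgs2 (-0.80 to 0.77), 0.26 for Ptgs1 (-0.19 to 0.71) and -0.022 for Ptges (-0.26 to 0.22). The interaction, which is the change for TubB within the stimulus labels minus that outside them, was called for 0 of the 9 genes and for 0% of all genes, with 277 at an unadjusted p under 0.05 and 0 by DESeq2. For Ptgs1 it was 0.40 (-0.12 to 0.93) and for Ptgs2 -0.029 (-1.37 to 1.31), so for Ptgs2 a difference of more than 2-fold between the contrasts is within the interval.

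The order of the 10 genes by level per kilobase also differed between the labelled groups. In the libraries labelled mock it ran from Ptges3 (mean 182 CPM per kilobase) through Pla2g4a (50.3), Hpgds (36.3), Ptges2 (15.4), Ptgs2 (9.80), Ptgs1 (5.76) and Ptges (3.13) to Ptger4 (0.301), Tbxas1 (0.150) and Ptger2 (0.0174). Each gene's 2 libraries stood apart from those of its neighbour in that order, though Ptger4 and Tbxas1 did so on few counts. The libraries labelled LPS_IFNg gave the same order, where Ptger4 and Tbxas1 overlapped. In the libraries labelled TubB, Ptgs2 came first (399), followed by Ptges3 (125), Hpgds (48.4), Pla2g4a (45.2), Ptges (17.4), Ptges2 (10.3), Ptger4 (1.12), Ptgs1 (0.750) and Tbxas1 (0.124), and Hpgds and Pla2g4a overlapped. Those labelled LPS_IFNg_TubB differed from this only in Ptgs1 (0.960) and Ptger4 (0.817), which changed places and overlapped. Ptges stood below Ptges2 in the first 2 groups and above it in the last 2. Where Ptgs1 falls in these orders rests on its exon length: undivided, it had a mean of 71.5 CPM against 43.7 for Ptgs2 in the libraries labelled mock, 64.8 against 44.0 in those labelled LPS_IFNg, and 9.31 against 3.74 for Ptger4 in those labelled TubB.

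The genes whose pattern over the 8 libraries lay closest to that of each cyclooxygenase were found among 8591 genes by the root mean square difference of log2 CPM, after each gene's own mean was subtracted. For Ptgs2 they were Cd274 (the checkpoint ligand PD-L1; 0.14), Nos2 (0.16), Sp100 (a nuclear body protein; 0.21), Isg15 (a ubiquitin-like interferon-induced protein; 0.23) and Ccrl2 (an atypical chemokine receptor; 0.25). For Ptgs1, 4 of them were Tfap4 (a basic helix-loop-helix factor; 0.23), Sapcd2 (0.25), Srm (spermidine synthase, counted as a numbered copy on another sequence of the assembly; 0.27) and Mycn (a Myc family factor; 0.34). The libraries fall in 2 sets of 4, and the 5 genes near Ptgs2 had log2 fold changes of 4.98 to 5.93 for TubB against mock, and the 4 named for Ptgs1 -2.67 to -2.23. These genes were picked for a like pattern in the same libraries, so fold changes near those of Ptgs2 and Ptgs1 follow from the choice.

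Upstream of the cyclooxygenases stand other phospholipases and enzymes of arachidonate handling. Of 29 listed genes, 27 had a count and 18 were tested, with 6 called higher and 6 lower for TubB against mock (7 and 6 for LPS_IFNg_TubB against LPS_IFNg), where 26.3% of all genes tested were called higher and 24.9% lower (26.2% and 25% in the other contrast). The list lies somewhat above those shares in both directions, and no test was run on it. The median log2 fold change of the tested genes was 0.14, beside -0.014 over all genes. In the other contrast it was 0.28, beside -0.0088 over all genes. Plaat3, a phospholipase and acyltransferase, rose from 2.34 ± 0.25 (SD, n = 2) to 14.9 ± 0.076 CPM, a log2 fold change of 2.66 ± 0.29 (SE; adjusted p = 8.68e-09). The secreted phospholipase Pla2g5 rose by 0.95 ± 0.081 on the log2 scale and Acsl1, which activates long-chain fatty acids, by 1.05 ± 0.088. Fads2, the desaturase at the first step from linoleic to arachidonic acid, fell by 0.96 on the log2 scale. In the contrast of LPS_IFNg_TubB against LPS_IFNg these 4 genes had log2 fold changes of 3.45, 0.86, 1.18 and -1.07.

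**Figure D4:**
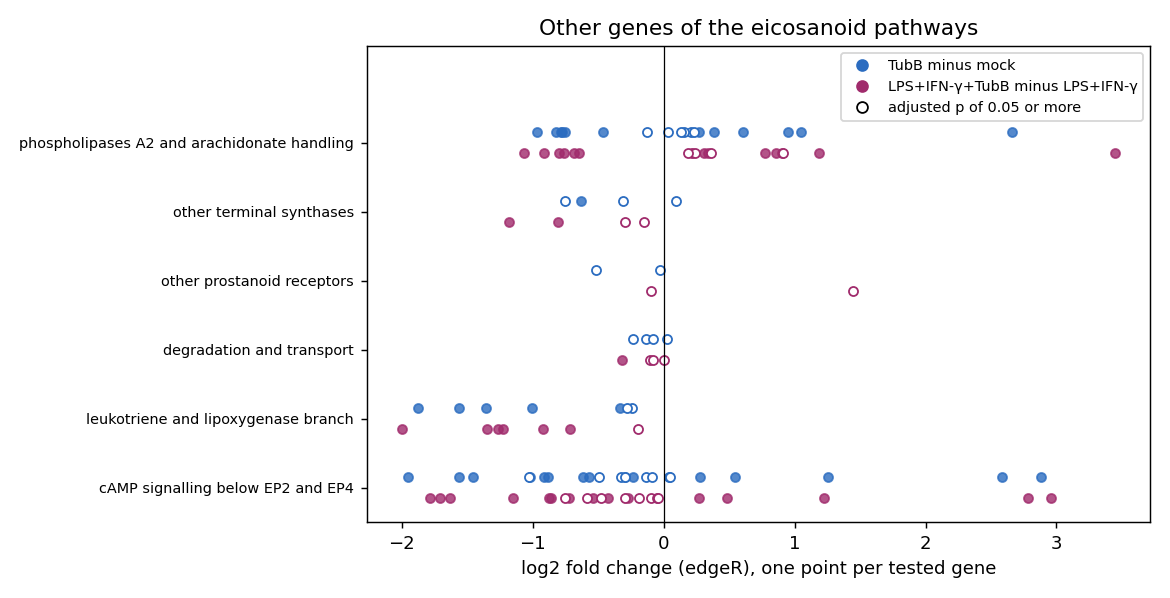
Log2 fold changes (horizontal axis) of the tested genes in 6 lists of related genes, 1 point per gene, for TubB against mock and for LPS_IFNg_TubB against LPS_IFNg; filled points passed an adjusted p of 0.05. The leukotriene list holds no filled point above 0, and the lists of phospholipases and cyclic AMP signalling hold filled points on both sides.

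Few genes were abundant enough to test among the other terminal synthases, the other receptors and the genes for disposal of prostanoids. Of 9 other synthases 4 were tested, and Akr1b3, an aldose reductase that can make prostaglandin F2α, fell from 354 ± 1.18 to 229 ± 0.20 CPM (log2 fold change -0.63 ± 0.072, adjusted p = 2.01e-08); 0 were higher. Of 8 other prostanoid receptors 2 were tested and 0 called. The prostacyclin receptor Ptgir was readily detected, at 127 ± 6.17 CPM in the libraries labelled mock and 125 ± 5.82 in those labelled TubB, a log2 fold change of -0.024 (adjusted p = 0.842). Ptger1 (EP1) had a mean of 0.921 CPM in the libraries labelled mock and 0.644 in those labelled TubB (log2 fold change -0.51, adjusted p = 0.622). It had 0.834 CPM in those labelled LPS_IFNg and 2.34 in those labelled LPS_IFNg_TubB (log2 fold change 1.45, not called). Ptger1 passed the filter on low counts only through the libraries labelled LPS_IFNg_TubB, with 11 and 13 counts. This favoured a rise there, so the values are given as a description only. Of 6 genes for degradation and transport 4 were tested and 0 called for TubB against mock, among them the export pump Abcc1 (log2 fold change 0.028, adjusted p = 0.799) and the reductase Ptgr2 (-0.082, adjusted p = 0.553). For LPS_IFNg_TubB against LPS_IFNg, 2 of the 4 synthases and 1 of the 4 degradation and transport genes were called lower and 0 higher. Over all genes tested, 26.3% were called higher and 24.9% lower for TubB against mock, and 26.2% and 25% in the other contrast. With so few genes tested per list, these counts cannot be set apart from those shares. With library totals alone, 3 of the 4 tested synthases, 1 of the 2 receptors and 3 of the 4 degradation and transport genes were called lower for TubB against mock.

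The leukotriene branch draws on the same arachidonic acid. Of its 19 listed genes only 7 were abundant enough to test. For TubB against mock 5 of these 7 were called lower and 0 higher (6 and 0 for LPS_IFNg_TubB against LPS_IFNg), where 24.9% of all genes tested were called lower (25% in the other contrast), with a median log2 fold change of -1.004 beside -0.014 over all genes. Alox5, the 5-lipoxygenase that opens the branch, fell from 28.1 ± 4.46 (SD, n = 2) to 7.80 ± 1.08 CPM, a log2 fold change of -1.87 ± 0.22 (SE; adjusted p = 2.07e-08), and it fell from 32.5 ± 7.11 to 8.05 CPM in the other contrast. The leukotriene C4 synthase Ltc4s fell by 1.56 on the log2 scale (adjusted p = 0.00103) and by 1.26 in the other contrast (adjusted p = 0.00503), where the call was lost without replicate 1 of LPS_IFNg_TubB (adjusted p = 0.0589). The microsomal glutathione transferases Mgst3 and Mgst2 had log2 fold changes of -1.36 ± 0.20 and -1.004 ± 0.17, both called.

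The last list holds genes of cyclic AMP signalling, below EP2 and EP4. Of 26 genes 23 were tested, with 5 higher and 10 lower for TubB against mock, and 5 and 10 for LPS_IFNg_TubB against LPS_IFNg. Over all genes tested the shares were 26.3% and 24.9%, and 26.2% and 25%. The count of higher genes thus lies near the background and that of lower genes above it, and no test was run on the list. The median log2 fold change of the tested genes was -0.29 for TubB against mock, beside -0.014 over all genes. For LPS_IFNg_TubB against LPS_IFNg it was -0.43, beside -0.0088. Crem, a cyclic AMP-responsive transcription factor gene, rose from 7.88 ± 0.28 (SD, n = 2) to 58.4 ± 5.96 CPM (log2 fold change 2.88 ± 0.17, SE; adjusted p = 8.30e-15). Pde4b, a phosphodiesterase that degrades cyclic AMP, rose from 18.4 ± 0.23 to 110.7 ± 6.21 CPM (2.58 ± 0.13, adjusted p = 2.16e-16). The adenylyl cyclase Adcy6 fell from 31.1 ± 1.78 to 7.82 ± 1.74 CPM (-1.95 ± 0.20, adjusted p = 2.21e-09). Prkar1b, a regulatory subunit of protein kinase A, had 2.51 and 3.32 CPM in the libraries labelled mock and 1.32 and 0.754 in those labelled TubB (-1.56 ± 0.66, adjusted p = 0.0498), a call kept under 5 of 17 alternative fits. For LPS_IFNg_TubB against LPS_IFNg it was not called (-0.75, adjusted p = 0.331).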

How the data were processed

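RNA of RAW264.7 cells was sequenced in 8 libraries, 2 per labelled group. The kit was non-directional, per the labels' protocols. STAR 2.7.0 (aligner) and featureCounts (counter) are named in the submitters' processing notes. featureCounts 2.0.1, per the file headers, counted read pairs over exons by gene with the NCBI RefSeq annotation of GRCm38.p6, with no option for strand or for multi-mapped reads. The authors deposited raw counts per gene, summed exon lengths per the file headers, and log2 values (rlog) for 18955 genes, used only as an alternative and to check column numbering. Totals were 4767894 to 8413834 counts per library, so that counting error is large only for genes with few counts.

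CPM were computed with TMM factors. edgeR 4.0.16 (R 4.3.3) fitted all 8 libraries with the group as the only term, after filterByExpr (minimum count 10, total 15). The fit left 4 residual degrees of freedom. SE is the fold change over the square root of its F statistic, and 95% intervals use edgeR's degrees of freedom. Contrasts that share a group share libraries; TubB against mock and LPS_IFNg_TubB against LPS_IFNg share none. The scripts were tested on simulated data.

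None of the 10 genes and 4 of 96 pathway genes (Acsl3, Alox12, Alox15 and Arrb2) have a numbered copy elsewhere in the assembly, where reads matching both copies could go uncounted. The listed gene Oxer1 was not matched. Named genes were the 10 members, up to 4 called genes per pathway list with the largest change for TubB against mock (or the 2 most abundant where none was called), the 5 genes nearest in pattern to Ptgs1 and Ptgs2 whose mean reached 3 log2 CPM (prior count 2), and 10 stimulus markers. One gene that this rule names is not reported here. The genes and lists were chosen with earlier results of these data known. Alternatives were RLE factors, library totals alone, no count filter, the compared groups alone, a filter at 1 CPM in 2 libraries, the replicate block, DESeq2 1.42.0, limma 3.58.1 (voom and rlog), leaving out each library, and a 2-fold minimum.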

Additional observations from a re-analysis of the deposited data

How the results depend on the processing

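Under the 17 alternative fits, the calls of Ptgs1, Ptgs2, Ptges and Ptges3 kept their direction and their side of the threshold in both contrasts for TubB. Of the 153 values of the 9 genes under these alternatives, 149 kept their side of the threshold for TubB against mock and 148 for LPS_IFNg_TubB against LPS_IFNg, and no called value changed sign. The exceptions concern Ptger4, Ptges2, Hpgds and Pla2g4a, whose values stand in the report; the cause was not tested. Among values called in neither fit, 36 of 515 had the other sign. A 2-fold minimum left 1 of the 9 genes called lower in each contrast, and over all genes 1103 higher and 626 lower for TubB against mock and 1105 higher and 691 lower for LPS_IFNg_TubB against LPS_IFNg, since it removes small changes by construction. Library totals alone gave 2010 higher and 4198 lower against 2916 and 2755 with TMM for TubB against mock, and 2000 and 4132 against 2903 and 2768 for the other contrast, beside a median over all genes that moved by -0.21 in both. Undivided by length, the ratio of Ptgs2 to Ptgs1 was 0.611 (mock), 0.679 (LPS_IFNg), 219 ± 148 (TubB, SD over 2 libraries) and 146 (LPS_IFNg_TubB). The replicate block left 4 genes (Ptger4 included) called higher and 3 lower in both contrasts and changed no other call of these genes. It lowered the SE of Ptgs2 from 0.37 to 0.19 for TubB against mock. Deviations of same-numbered libraries correlated between groups by -0.052 to 0.15, and no label says what a number stands for. Counts were nonetheless closer between same-numbered libraries of mock and LPS_IFNg, and of TubB and LPS_IFNg_TubB (mean chi-square per gene 1.91 to 2.32), than between differently numbered ones (2.62 to 4.49), a hint of pairing from the data and not from the design. Depth limits Ptger2, Ptger4 and Tbxas1.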

Other observations

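A pair of gene models annotated as antisense lie on either side of Ptgs2 on chromosome 1, the downstream one at some distance. They are named here after their values were seen. Ptgs2os (150074873 to 150099874, minus strand, GRCm38.p6), upstream of Ptgs2, had 0 counts in all 4 libraries labelled mock and LPS_IFNg, 5 and 4 counts in those labelled TubB and 3 and 10 in those labelled LPS_IFNg_TubB. Ptgs2os2 (150159043 to 150164948, minus strand), downstream of it, averaged 9.26 ± 2.5 CPM for mock, 10.5 ± 0.12 for LPS_IFNg, 35.8 ± 2.1 for TubB and 40.1 ± 0.69 for LPS_IFNg_TubB by label (SD over 2 libraries each). The log2 fold change of Ptgs2os2 was 1.94 ± 0.19 (SE) in both contrasts, a description only, since the gene was picked after its values were seen. Neither model shares exon bases with Ptgs2. Reads were counted without strand, so these counts cannot show that the RNA is antisense. Libraries with the same label were not the closest pairs. The mean chi-square per gene, where 1 would be sampling noise, was 2.88 between the libraries labelled mock and 2.55 between those labelled LPS_IFNg, but 1.97 and 1.91 between same-numbered libraries of these groups. It was 4.74 between the libraries labelled TubB and 3.23 between those labelled LPS_IFNg_TubB, but 1.93 and 2.32 between same-numbered libraries of these groups. Ptgs2 followed the numbers there, at 2205 and 2048 CPM in replicates 1 and 1357 and 1464 CPM in replicates 2. Hpgds and Ptges3 also split by number, while Ptgs1, Ptges, Ptges2, Pla2g4a, Tbxas1 and Ptger4 overlapped between the numbers.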
